A study of Mus musculus with 24 samples.

Results

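Long intergenic noncoding RNAs (lincRNAs) of the hippocampal CA1 field were followed in mice with and without Kat2a in excitatory forebrain neurons, before and after exposure to novelty. They were chosen by their measured level, and a gene was taken when the authors' deposited comparison tables gave it the type lincRNA and a mean normalised count (base mean) of at least 50 in any of the 4 tables. This gave 182 lincRNAs, of 440 lincRNAs and 16355 genes of all types in those tables and 38355 genes in the count tables. The choice used the deposited type and the highest of the 4 base means, so a difference between groups could bring a gene in. Of the 182, 165 reached the threshold in all 4 tables. Just inside the threshold were Gm6277, Gm6297 and Gm14827, with highest base means of 50.1, 50.7 and 51.0, and just outside were 9330179D12Rik, Mir670hg and Epb41l4aos, with 49.7, 49.3 and 48.2.

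All mice were C57BL/6J, 3 to 5 months old and homozygous for a floxed Kat2a allele (Kat2a fl/fl), so the control mice carried the floxed allele too. Mice of the conditional knockout (cKO) also had the CamKII_alpha-cre+ transgene, whose promoter is active in excitatory forebrain neurons, which leaves Kat2a in glia, vessels and interneurons. The novelty groups were exposed for 15 min and the naive groups were not exposed. The dissected CA1 gave 7 cKO novelty, 6 cKO naive, 5 control novelty and 6 control naive libraries of polyadenylated RNA. The labels do not say that each library came from a separate mouse, so p-values measure the spread between these libraries.

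LincRNAs are transcribed by RNA polymerase II, spliced and often polyadenylated, but have no long reading frame. Some act in the nucleus, as Malat1 and Neat1 do in nuclear speckles and paraspeckles, some carry microRNAs or small nucleolar RNAs in their introns or exons, and many start beside a coding gene on the other strand and share its promoter. Kat2a (Gcn5) is a histone acetyltransferase that acts on histone H3 at promoters as a subunit of large coactivator complexes.

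Some of the lincRNAs carry microRNAs: 17 of the 182 held 36 microRNA hairpins on their own strand. All 3 mouse loci of miR-9, a microRNA of neural progenitors and neurons, lay in lincRNAs: Mir9-1 in Gm3764, Mir9-2 in C130071C03Rik and Mir9-3 in Mir9-3hg. The mature sequences from RefSeq (GRCm38.p6) are shown because the host transcripts Gm3764, Mir9-3hg, C130071C03Rik and Rian are the ones described most fully below, with the seed (bases 2 to 8) in capitals. The 3 miR-9 loci give 1 and the same mature pair, and the polyadenylated libraries measured the hosts, not the mature microRNAs.
miR-9-5p (Mir9-1, Mir9-2 and Mir9-3): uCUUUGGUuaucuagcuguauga
miR-9-3p (Mir9-1, Mir9-2 and Mir9-3): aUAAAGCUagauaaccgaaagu
miR-370-3p (in Rian): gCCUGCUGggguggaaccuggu
miR-341-3p (in Rian): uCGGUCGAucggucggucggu
miR-1188-5p (in Rian): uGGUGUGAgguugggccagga

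Promoter windows from RefSeq (GRCm38.p6), 250 bases before to 50 after the annotated start, are shown for 5 lincRNAs that passed the test for novelty. Gm3764, Mir9-3hg, 2810029C07Rik and 9330104G04Rik were lower after novelty, and B230354K17Rik was higher. The windows were searched on both strands for 4 motifs of activity-regulated factors. These were the cyclic AMP response element TGACGTCA, the AP-1 site TGANTCA, the Egr site GCGNGGGCG and the CArG box. A part of the motifs in the changes was not tested. Matches are in capitals, those to the Egr site on the reverse strand, and the motifs do not overlap in these windows. The window of Gm3764 is that of a RefSeq start inside the deposited gene, and the other 4 stand at the deposited start. The windows of 2810029C07Rik and B230354K17Rik also hold the start of the coding gene on the other strand, Mark3 and Cdc5l.
Gm3764, chr3:88214232-88214531, plus strand: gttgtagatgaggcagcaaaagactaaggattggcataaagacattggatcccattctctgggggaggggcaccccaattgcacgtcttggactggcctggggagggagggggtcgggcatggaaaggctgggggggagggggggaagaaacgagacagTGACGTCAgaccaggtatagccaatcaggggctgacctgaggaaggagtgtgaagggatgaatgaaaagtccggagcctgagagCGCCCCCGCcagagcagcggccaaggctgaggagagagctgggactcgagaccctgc
Mir9-3hg, chr7:79499776-79500075, plus strand: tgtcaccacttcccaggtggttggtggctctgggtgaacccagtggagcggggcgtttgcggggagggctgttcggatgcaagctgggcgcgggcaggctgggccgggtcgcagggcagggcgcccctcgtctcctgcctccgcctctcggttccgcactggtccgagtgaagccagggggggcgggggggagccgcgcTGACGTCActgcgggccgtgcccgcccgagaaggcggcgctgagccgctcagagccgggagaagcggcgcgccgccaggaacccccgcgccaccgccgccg
2810029C07Rik, chr12:111574353-111574652, minus strand: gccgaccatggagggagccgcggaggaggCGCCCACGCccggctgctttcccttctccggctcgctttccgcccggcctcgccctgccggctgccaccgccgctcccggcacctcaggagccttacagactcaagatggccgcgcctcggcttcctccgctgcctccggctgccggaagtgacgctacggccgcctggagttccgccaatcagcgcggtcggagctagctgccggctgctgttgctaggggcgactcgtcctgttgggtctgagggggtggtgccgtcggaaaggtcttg
9330104G04Rik, chr7:16874837-16875136, minus strand: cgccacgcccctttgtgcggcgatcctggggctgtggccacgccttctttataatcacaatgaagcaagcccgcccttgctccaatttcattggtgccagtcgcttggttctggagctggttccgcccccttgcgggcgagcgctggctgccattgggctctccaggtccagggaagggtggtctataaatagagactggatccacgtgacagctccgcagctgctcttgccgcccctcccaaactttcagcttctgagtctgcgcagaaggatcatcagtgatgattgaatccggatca
B230354K17Rik, chr17:45433581-45433880, plus strand: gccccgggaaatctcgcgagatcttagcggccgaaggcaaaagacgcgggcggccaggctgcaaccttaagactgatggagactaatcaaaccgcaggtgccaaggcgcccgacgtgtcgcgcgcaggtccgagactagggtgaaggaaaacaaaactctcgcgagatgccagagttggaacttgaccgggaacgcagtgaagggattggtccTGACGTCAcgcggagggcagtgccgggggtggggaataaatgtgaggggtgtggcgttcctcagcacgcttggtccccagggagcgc

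A RefSeq window at the deposited start was found for 63 of the 182 lincRNAs. The cyclic AMP response element was in 7 of these 63 windows (11.1%), against 1.79% of all 32851 RefSeq promoters of the same length. The Egr site was in 6 of the 63 (9.52%, against 5.55% of all promoters). The AP-1 site was in 3 of the 63 (4.76%, against 7.81%) and the CArG box in 0 (against 1.63%). The lincRNA windows were also richer in CG, with a median of 19 CG pairs against 7 in all promoters, and the part of base composition in the motif count was not tested. Among the lincRNAs that passed the test for novelty averaged over genotypes, 13 windows of 11 genes were found. Here every RefSeq window of a gene was counted, also those away from the deposited start. Of the 13 windows, 3 held the cyclic AMP response element (all shown above), 3 the Egr site and 1 the AP-1 site (7.69%). Away from the deposited start lay the Gm3764 window, with its 2 matches, and the 1810058I24Rik window with the AP-1 site. Of all RefSeq promoters, 5.55% held the Egr site and 7.81% the AP-1 site. The CArG box was in none of these 13 windows and in 1.63% of all promoters. The 13 windows had a median of 27 CG pairs, and the part of base composition in these counts was not tested either. A match is a run of letters and not a measured binding site.

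Reads assigned to genes numbered 10.7 to 35.75 M per library (M for 1e6), with a median of 19 M. Kat2a, the targeted gene, was at 31.2 to 39.3 CPM (counts scaled to a total of 1e6) in the cKO libraries, against 56.0 to 70.3 CPM in the control libraries, with no overlap. The CA1 marker list (Wfs1, Fibcd1, Pou3f1, Camk2a and Neurod6) had reads in every library, as had each list for the other cell types. In these bulk samples, fewer cells of a type and less RNA per cell cannot be told apart. Between genotypes, the oligodendrocyte list moved most often: 5 of its 7 genes were lower in cKO libraries, with a median log2 fold change of -0.25. Its summed level was 3150 to 6060 CPM in cKO novelty and 4100 to 5210 CPM in cKO naive libraries, against 4560 to 5550 CPM in control novelty and 4910 to 5180 CPM in control naive libraries. Lower were also 3 of 7 interneuron, 2 of 5 dentate granule, 1 of 5 CA1, 1 of 4 oligodendrocyte precursor and 1 of 5 endothelial genes, and none of the 10 lists had a gene that was higher. The part of cell make-up in the lincRNA values below was not tested.

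The 182 lincRNAs held 0.657 to 1.53% of assigned reads per library, and a few of them held most of that. The 10 with the highest mean level took 72.9 to 87.2% of lincRNA reads. The median lincRNA was at 6.04 CPM, and 123 of the 182 were under 10 CPM. The lowest count of any of them in any library was 17 reads.

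**Figure D1:**
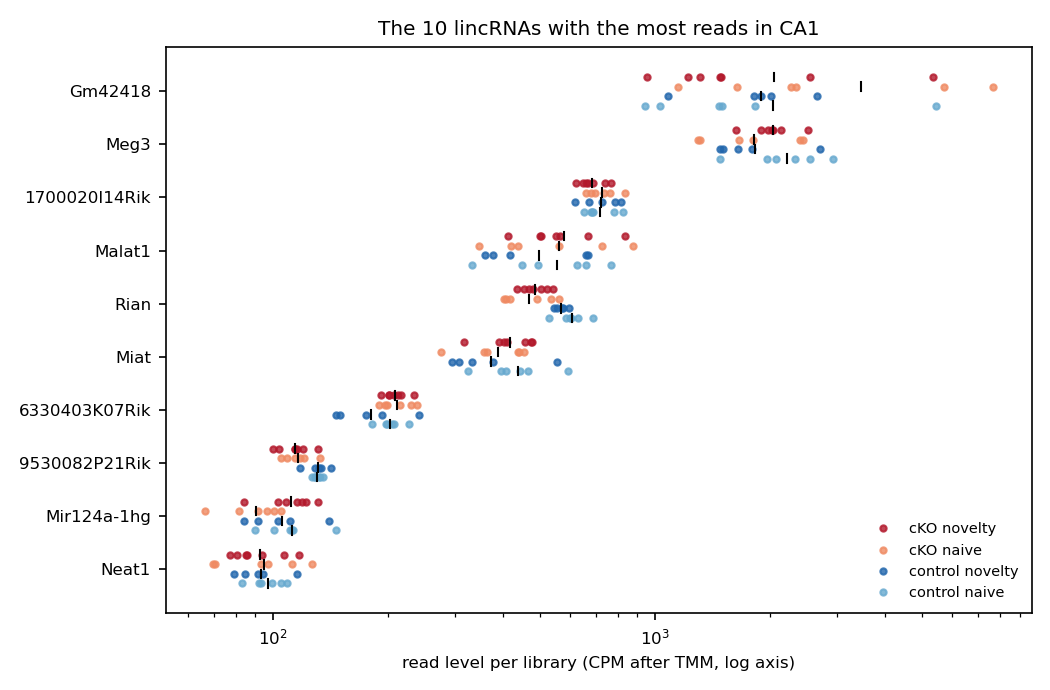
Read level in CPM on a log axis of the 10 lincRNAs with the most reads, with 1 point per library, colours for the 4 groups and black ticks for group means. Gm42418 spreads from 942 to 7650 CPM, while 1700020I14Rik stays between 618 and 834 CPM.

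Gm42418 had the most reads of all, on average 2370 CPM. This gene (chr17:39846958-39848788, GRCm38) is known to lie in ribosomal RNA precursor sequence. It had 956, 1480 and 5330 CPM (lowest, median and highest here and below) in cKO novelty and 1150, 2300 and 7650 CPM in cKO naive libraries. It had 1820, 2010, 1890, 1080 and 2660 CPM in the 5 control novelty libraries and 942, 1480 and 5440 CPM in control naive libraries. All groups overlapped, and in cKO novelty and control naive mice 1 library stood far above the rest of its group. It took 12 to 50.3% of lincRNA reads, the widest range of the 10.

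Meg3, an imprinted transcript of the maternal Dlk1-Dio3 locus, came next with a mean of 1980 CPM. 1700020I14Rik, the mouse Cyrano gene, which drives the decay of a microRNA, averaged 712 CPM. Malat1, a long-lived RNA of nuclear speckles, averaged 550 CPM, Rian, a second Dlk1-Dio3 transcript, 529 CPM, and Miat, a neuronal nuclear RNA, 406 CPM. Per kilobase of exon Gm42418 was again first, at 1290 RPKM, and below it the order changed: 6330403K07Rik was at 136 RPKM, Meg3 at 110 RPKM, Cyrano at 85.8 RPKM, Malat1 at 78.8 RPKM and Rian at 29.0 RPKM. Neat1, the scaffold of paraspeckles, was at 94.3 CPM but, with its long exon, at 4.54 RPKM.

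The deposited type lincRNA covers several kinds of transcript. In the GENCODE M21 annotation, 100 of the 182 are lincRNAs, 29 are antisense transcripts, 14 are processed transcripts and 11 start at a bidirectional promoter. The same annotation calls 7 of them protein coding, among them Gm2115, 6330403K07Rik, Tunar and Mtln, the last of which encodes a mitochondrial micropeptide, and it lists 2 as transcribed pseudogenes. By the deposited coordinates, 60 of the 182 overlap a coding gene, 57 of them on the opposite strand. The library kit does not mark strand, so reads over such an overlap cannot be assigned to a strand. A further 34 start within 1000 bases of a coding gene's start on the other strand, pointing away from it, and 57 lie more than 5000 bases from any coding gene.

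In cKO libraries, averaged over exposures, 12 of the 182 lincRNAs were lower and 3 were higher than in control libraries. These 15 calls are 8.24% of the lincRNAs, beside 12% of all 16744 genes tested (6.32% lower and 5.72% higher), so the share called was not above the background. The median log2 fold change was -0.001 for the lincRNAs, against 0.005 for all genes, and it was 0.011, against 0.018, with upper-quartile scaling. All calls here are from edgeR's quasi-likelihood test at a Benjamini-Hochberg adjusted p under 0.05 over all genes. Of the 165 lincRNAs at the threshold in all 4 tables, 12 were lower and 1 was higher. The other 2 calls, 6530403H02Rik and 9530026P05Rik, reached the threshold only in the table made of cKO libraries, where they are high, so the choice itself favoured a difference.

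**Figure D2:**
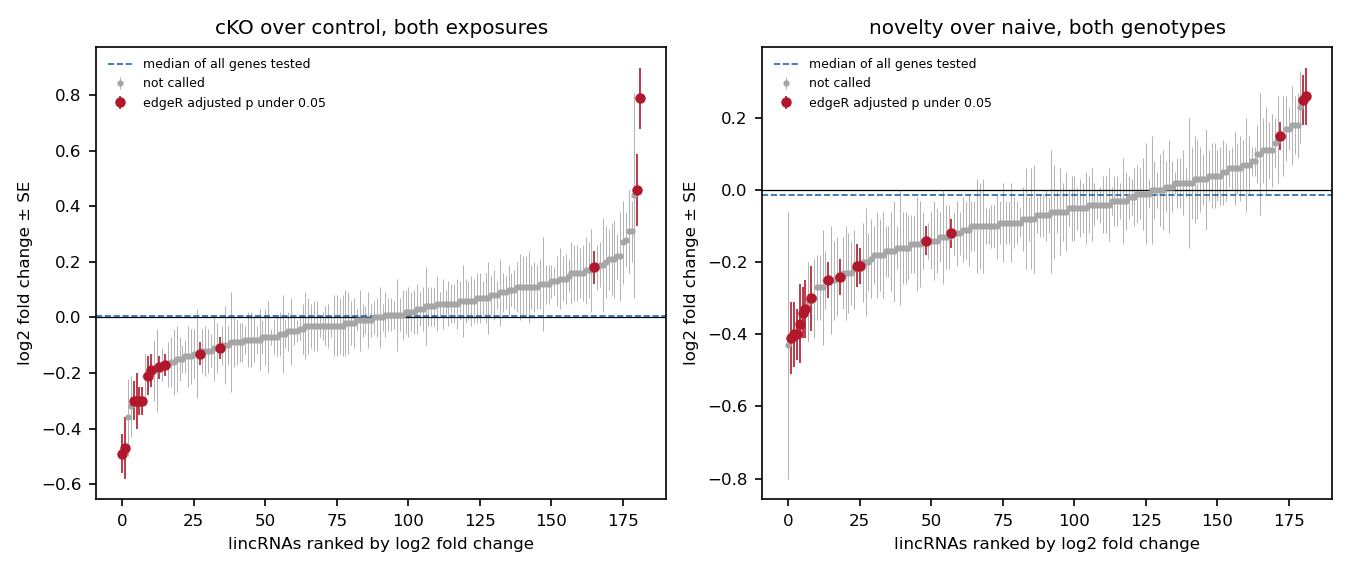
Log2 fold change with its SE of the 182 lincRNAs, ranked, for cKO over control (left) and novelty over naive (right), with called lincRNAs in red. Genotype spreads the lincRNAs evenly around 0, with 91 negative, while 129 are negative for novelty.

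Gm2115 separated the genotypes completely. It had 51.9, 61.1 and 75.7 CPM in cKO novelty libraries, against 118, 82.3, 82.3, 92.2 and 87.6 CPM in control novelty libraries. It had 48.8, 62.4 and 68.7 CPM in cKO naive libraries, against 77.4, 82.4 and 89.7 CPM in control naive libraries. All 13 cKO libraries lay below all 11 control libraries, which held for 0.317% of all genes tested. The difference was -0.49 ± 0.07 on the log2 scale (± SE; edgeR adjusted p = 3.88e-05), and the gene passed also in naive (-0.46 ± 0.08, edgeR adjusted p = 0.016) and in novelty-exposed mice (-0.52 ± 0.10, edgeR adjusted p = 0.0163). Gm2115 (chr7:84528975-84578337) is protein coding in GENCODE M21.

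Rian, the host of small nucleolar RNAs and of the 3 microRNAs printed above, was lower in cKO libraries. It had 436, 479 and 542 CPM in cKO novelty libraries, against 555, 544, 572, 597 and 576 CPM in control novelty libraries. It had 403, 454 and 560 CPM in cKO naive libraries, against 528, 601 and 689 CPM in control naive libraries. The novelty-exposed groups did not overlap and the naive groups did. Averaged over exposures, the log2 fold change was -0.30 ± 0.05 (edgeR adjusted p = 0.00058), and it was -0.37 ± 0.09 in naive (edgeR adjusted p = 0.0674) and -0.22 ± 0.05 in novelty-exposed mice (edgeR adjusted p = 0.0205). The last call was lost without control novelty library 5 (edgeR adjusted p = 0.0559) and when the contrast was taken from the fit over all 24 libraries.

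The neighbours of Rian on the maternal chromosome are read from the same strand. Meg3 had a log2 fold change of -0.07 ± 0.13 (edgeR adjusted p = 0.796) and Mirg, which holds 14 microRNA hairpins, of -0.19 ± 0.11 (edgeR adjusted p = 0.263). Meg3 had 1630, 2030 and 2520 CPM in cKO novelty and 1300, 1730 and 2440 CPM in cKO naive libraries, against 1650, 1510, 1790, 2700 and 1480 CPM in control novelty and 1480, 2200 and 2920 CPM in control naive libraries. Its groups overlapped widely, and its SE was larger than that of Rian. A difference between Rian and Meg3 in their response was not tested. Meg3 and Rian do not overlap on the chromosome, and Rtl1, the nearest coding gene to Rian on the opposite strand, had a log2 fold change of 0.05 ± 0.13 (edgeR adjusted p = 0.836).

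Gm1976 (chr17:94759944-94834799) had 15.3, 16.7 and 20.5 CPM in cKO novelty libraries, against 22.8, 22.1, 22.1, 20.5 and 24.2 CPM in control novelty libraries. In naive mice it had 17.4, 18.8 and 19.2 CPM in cKO libraries, against 19.5, 21.5 and 26.3 CPM in control libraries. The naive groups did not overlap and the novelty-exposed groups met at 20.5 CPM. Over both exposures the log2 fold change was -0.30 ± 0.05 (edgeR adjusted p = 0.000308). Its nearest coding gene Mettl4, a methyltransferase gene on the same strand, had 0.14 ± 0.06 (edgeR adjusted p = 0.146).

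6530403H02Rik was the lincRNA with the largest fold change. It had 2.59, 3.3 and 4.13 CPM in cKO novelty libraries, against 1.78, 1.43, 2.04, 1.31 and 2.36 CPM in control novelty libraries. It had 2.07, 2.76 and 3.86 CPM in cKO naive libraries, against 1.49, 1.7 and 2.1 CPM in control naive libraries. All 13 cKO libraries were above the control median of 1.7 CPM, and the naive groups overlapped slightly. The log2 fold change was 0.79 ± 0.11, given as a description because its base mean was 60.3 in the table of cKO libraries, 43.5 and 49.7 in the tables across genotypes and 31.9 in the table of control libraries. It lies on chr3:120604109-120886733, 268667 bases from Rwdd3, its nearest coding gene.

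**Figure D3:**
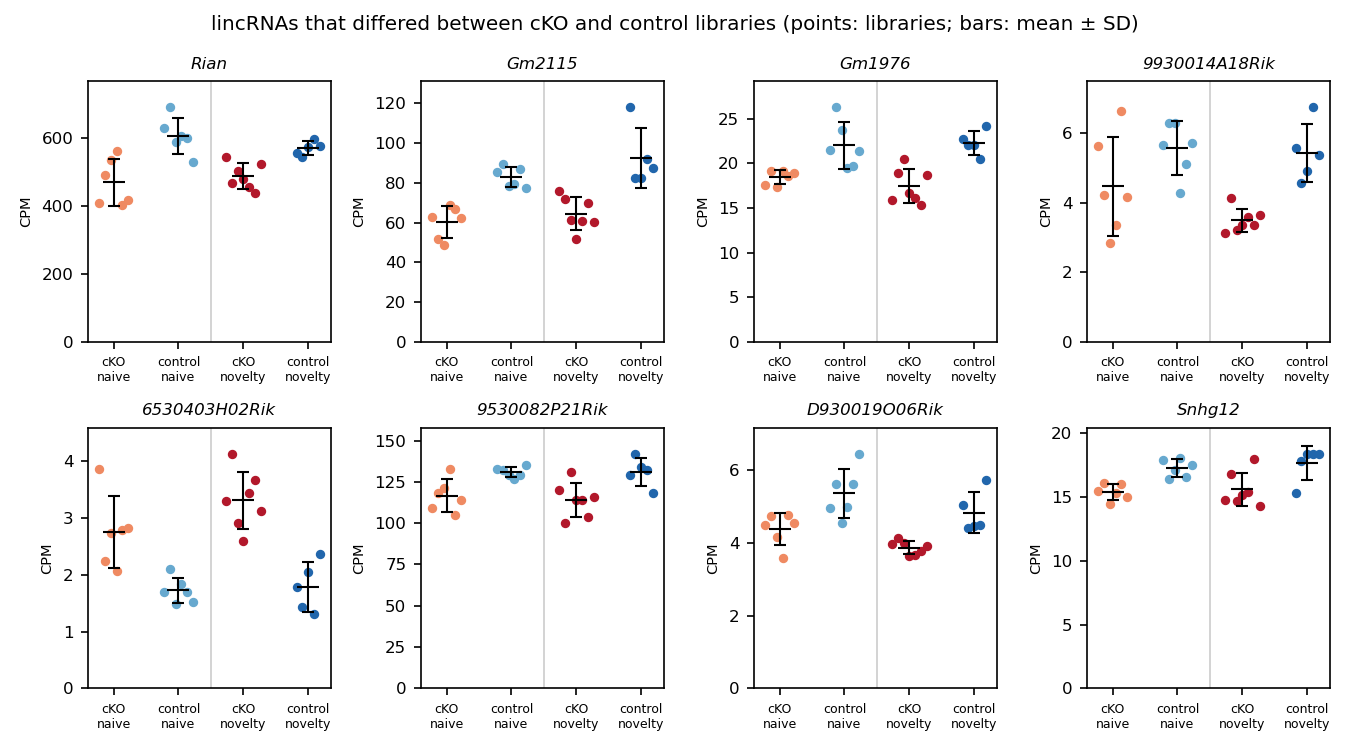
CPM per library of 8 lincRNAs that passed the test between genotypes, with means and SD as bars, cKO left of control within naive (left pair) and novelty-exposed mice (right pair). Gm2115 shows no overlap between the genotypes, and 6530403H02Rik is the only 1 of the 8 that is higher in cKO libraries.

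Of the 12 lincRNAs lower in cKO libraries, 7 overlap a coding gene. 9930014A18Rik had 3.13, 3.37 and 4.13 CPM in cKO novelty libraries, against 5.59, 4.57, 4.91, 6.75 and 5.38 CPM in control novelty libraries, with no overlap. In naive mice it had 2.83, 4.2 and 6.63 CPM in cKO libraries, against 4.29, 5.7 and 6.31 CPM in control libraries, with overlap. Its averaged log2 fold change was -0.47 ± 0.11 (edgeR adjusted p = 0.00566), and Fam84b, the coding gene it overlaps on the other strand, had the same value, -0.47 ± 0.12 (edgeR adjusted p = 0.0119).

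Similar pairs were seen at 2 further loci. Gm26794 was at -0.21 ± 0.07 (edgeR adjusted p = 0.0363) with Kcnj3, an inwardly rectifying potassium channel gene, at -0.18 ± 0.05 (edgeR adjusted p = 0.0123). Gm26631 was at -0.19 ± 0.06 (edgeR adjusted p = 0.0209) with Cox5a, a subunit of cytochrome c oxidase, at -0.11 ± 0.04 (edgeR adjusted p = 0.0445). In these pairs reads of the lincRNA and of the coding gene cannot be told apart by strand. 2310002F09Rik, which overlaps the kallikrein gene Klk10, went the other way from it: the lincRNA was at -0.30 ± 0.10 (edgeR adjusted p = 0.0412) and Klk10, at 0.775 CPM, at 1.89 ± 0.29 (edgeR adjusted p = 0.000105).

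The other overlapping lincRNAs moved without a call in their coding partner. D930019O06Rik was at -0.30 ± 0.07 (edgeR adjusted p = 0.00374), while Creg2, which it overlaps, was at -0.11 ± 0.05 (edgeR adjusted p = 0.149). 9530082P21Rik was at -0.18 ± 0.04 (edgeR adjusted p = 0.00358), and its partner Kremen2 had a level of 0.966 CPM. A830039N20Rik, within Kcnma1 on the same strand, was at -0.13 ± 0.04 (edgeR adjusted p = 0.0302), with Kcnma1, the large-conductance potassium channel, at -0.03 ± 0.03 (edgeR adjusted p = 0.536). 9530026P05Rik, overlapping Adamts9, was at 0.46 ± 0.13 and is given, like 6530403H02Rik, only as a description.

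Snhg12, a host of small nucleolar RNAs, was lower in cKO libraries, at 15.6 ± 1.33 CPM in cKO novelty and 15.4 ± 0.61 CPM in cKO naive libraries, against 17.6 ± 1.34 CPM in control novelty and 17.3 ± 0.671 CPM in control naive libraries (SD; n = 7, 6, 5 and 6). Its log2 fold change was -0.17 ± 0.04 (edgeR adjusted p = 0.00697). Rian, described above, was also called. The hosts Snhg6, Snhg5 and Snhg20 did not pass: Snhg6 was at -0.12 ± 0.06 (edgeR adjusted p = 0.255), Snhg5 at -0.07 ± 0.06 (edgeR adjusted p = 0.515) and Snhg20 at 0.04 ± 0.07 (edgeR adjusted p = 0.759).

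The remaining calls were small. C130071C03Rik, the Mir9-2 host beside Mef2c, was at -0.11 ± 0.04 (edgeR adjusted p = 0.0481) and passed in 7 of the 24 fits that leave out 1 library. B230217O12Rik, which starts 234 bases from Fam160b1, was at 0.18 ± 0.06 (edgeR adjusted p = 0.0467) and passed in 6 of 24. 2310002F09Rik and Gm26794 each passed in 13 of 24 and A830039N20Rik in 20 of 24, the last failing without control naive library 2, control novelty libraries 2 and 3 or cKO naive library 5 (edgeR adjusted p up to 0.0722). The other 10 of the 15 passed in all 24. These 10 include 6530403H02Rik and 9530026P05Rik, for which the choice itself favoured a difference, so their passing is no added support.

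Within each exposure fewer lincRNAs passed. The genotypes did not overlap for 4 of the 182 lincRNAs in naive mice (background 1.91% of genes) and 5 in novelty-exposed mice (background 3.14%). Both counts lay near these background shares, and the 5 include 6530403H02Rik, for which the choice itself favoured a difference. In the pairwise fits, 1 lincRNA passed between cKO naive and control naive libraries (background 0.801% of 16360 genes), and it was Gm2115. Between cKO novelty and control novelty libraries 6 passed (background 4.53% of 16188 genes), 2 higher and 4 lower. Of the 165 that reached the threshold in all 4 tables, 1 was higher and 4 were lower, without 6530403H02Rik. Without cKO naive library 4 the naive count was 4, and without cKO novelty library 3 the novelty-exposed count was 10. The 6 were Gm2115, Rian, Gm1976, 9930014A18Rik, 6530403H02Rik and Gm10561. Gm10561, antisense to Rftn2, had 9.58, 12 and 12.7 CPM in cKO novelty libraries, against 9.1, 9.84, 9.43, 8.2 and 8.45 CPM in control novelty libraries. These ranges overlapped, and its log2 fold change was 0.36 ± 0.08 (edgeR adjusted p = 0.0177, and 0.0528 without control novelty library 5).

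After novelty, averaged over genotypes, 13 of the 182 lincRNAs were lower and 3 were higher than in naive libraries. These 16 calls are 8.79% of the lincRNAs, beside a background of 6.55% of 16744 genes. Of the 165 lincRNAs at the threshold in all 4 tables, 11 were lower and 3 were higher. Of the other 2 calls, 9630001P10Rik reached the threshold only in the table of naive libraries and Gm20515 missed it only in the table of novelty libraries, so the choice itself favoured a difference. The directions differed from those of all genes. Of the calls among the 182 lincRNAs, 81.2% were lower, with the 2 favoured calls included, against 32.5% of all calls. The background was 2.13% for lower and 4.43% for higher calls. Of the 2428 coding genes with a level in the middle range of the lincRNAs, 95 were lower and 78 were higher. The median log2 fold change was -0.066 for the lincRNAs, against -0.013 for all genes, and 70.9% of the lincRNAs were negative, against 57.0% of all genes. With upper-quartile scaling 14 were lower and 1 was higher, and without control naive library 6, 10 passed, all of them lower. No lincRNA separated all 12 novelty from all 12 naive libraries, which held for 0.442% of all genes.

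Medians of other gene types are given as a description. For novelty the median log2 fold change was -0.081 over all 440 lincRNAs in the tables, -0.075 over 259 antisense transcripts and -0.059 over 276 processed transcripts. It was -0.011 over 14526 coding genes, and -0.031 over the 2428 coding genes at the level of the middle lincRNAs. Of the cell type lists, 2 of 5 endothelial and pericyte genes were lower after novelty, and of 6 microglial genes 1 was higher and 1 lower. The summed endothelial and pericyte level was 171 to 242 CPM in cKO novelty and 221 to 239 CPM in control novelty libraries, against 168 to 229 CPM in cKO naive and 220 to 262 CPM in control naive libraries, and its part in the lincRNA values was not tested. Immediate early genes marked the exposure: 4 of 5 (Fos, Egr1, Arc, Npas4 and Junb) were higher, with a median log2 fold change of 1.43 and a summed level of 339 to 777 CPM in cKO novelty and 367 to 539 CPM in control novelty libraries, against 117 to 164 CPM in cKO naive and 132 to 177 CPM in control naive libraries.

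Of the 3 miR-9 hosts, Gm3764 and Mir9-3hg were lower after novelty and C130071C03Rik did not pass. Gm3764, the Mir9-1 host, had 58.5, 70.5 and 77.0 CPM in cKO novelty libraries, against 61.8, 78.7 and 94.3 CPM in cKO naive libraries. It had 63.6, 57.4, 64.9, 85.7 and 51.4 CPM in control novelty libraries, against 74.0, 87.9 and 102 CPM in control naive libraries. In both genotypes the groups overlapped, and 11 of 12 novelty libraries were below the naive median of 82.5 CPM. Averaged over genotypes, its log2 fold change was -0.33 ± 0.08 (edgeR adjusted p = 0.0093). Gm3764 lies on chr3:88206813-88229959, and Mef2d, its nearest coding gene on the same strand, was at 0.02 ± 0.03 (edgeR adjusted p = 0.785).

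Mir9-3hg, the Mir9-3 host, had 21.5, 22.9 and 27.5 CPM in cKO novelty libraries, against 25, 28.6 and 30.9 CPM in cKO naive libraries. It had 23.2, 22.9, 27.2, 27.7 and 26.1 CPM in control novelty libraries, against 25.4, 30.6 and 31.4 CPM in control naive libraries. All 12 novelty libraries were below the naive median of 29.5 CPM, though the groups overlapped. Over both genotypes the log2 fold change was -0.25 ± 0.05 (edgeR adjusted p = 0.0017), and Polg, the nearest coding gene, was at 0.08 ± 0.04 (edgeR adjusted p = 0.247).

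C130071C03Rik, the Mir9-2 host, did not pass for novelty. It had 64.1, 68.1 and 76.9 CPM in cKO novelty libraries, against 65.7, 71.1 and 80.4 CPM in cKO naive libraries. It had 72.0, 74.1, 75, 70.8 and 71.3 CPM in control novelty libraries, against 74.1, 79.0 and 89.8 CPM in control naive libraries. The groups overlapped, and 10 of 12 novelty libraries were below the naive median of 75.5 CPM. The averaged log2 fold change was -0.09 ± 0.04 (edgeR adjusted p = 0.16). A difference between the 3 hosts in their response was not tested.

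**Figure D4:**
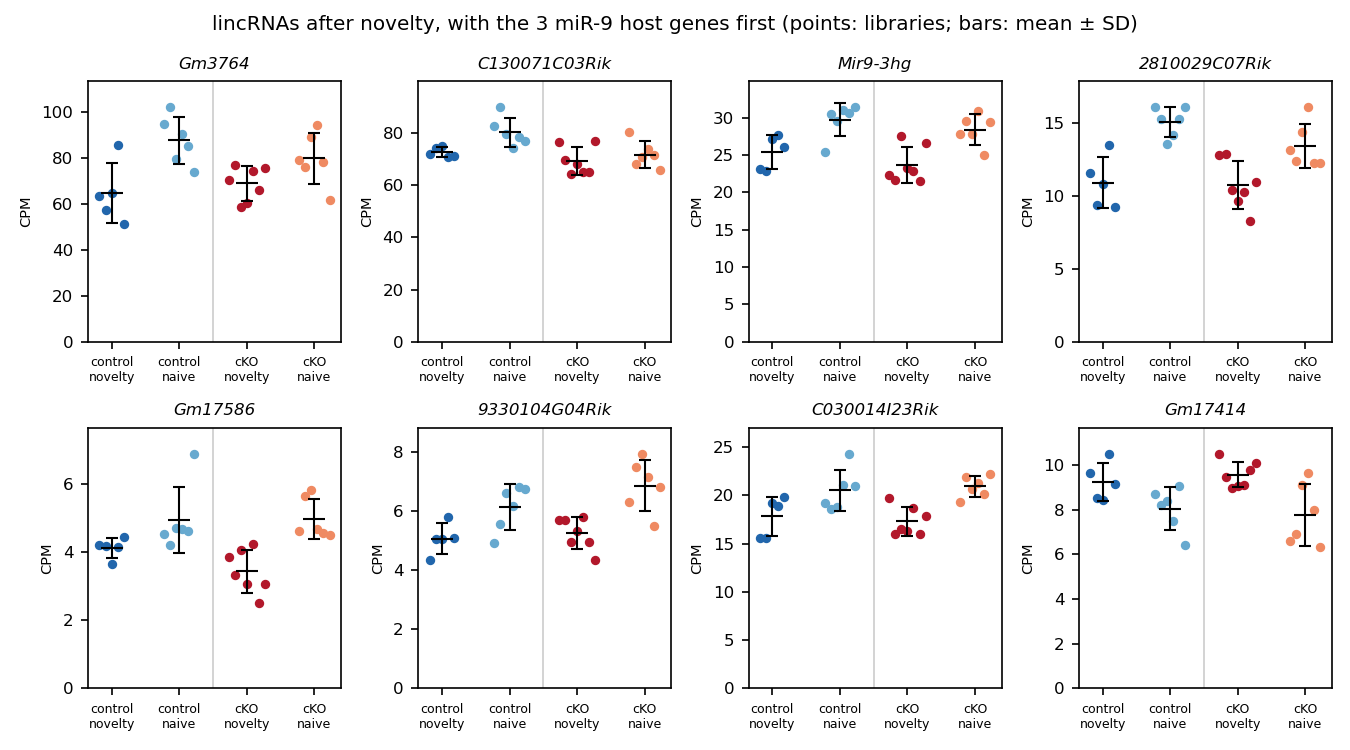
CPM per library of the 3 miR-9 hosts and 5 lincRNAs called for novelty, with means and SD as bars, novelty left of naive in control (left pair) and cKO mice (right pair). In 2810029C07Rik all 12 novelty libraries lie below the naive median of 14.3 CPM, and Gm17414 is the 1 panel with higher levels after novelty.

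2810029C07Rik had the smallest p for novelty. It had 8.27, 10.4 and 12.9 CPM in cKO novelty libraries, against 12.3, 12.8 and 16.1 CPM in cKO naive libraries. It had 11.6, 9.36, 10.8, 13.5 and 9.28 CPM in control novelty libraries, against 13.6, 15.3 and 16.1 CPM in control naive libraries. In control mice the groups did not overlap, which held for 2.4% of 16100 genes tested, and in cKO mice they did. The averaged log2 fold change was -0.40 ± 0.07 (edgeR adjusted p = 0.000496). It starts 108 bases from Mark3, a microtubule affinity regulating kinase gene on the other strand, which was at 0.00 ± 0.02 (edgeR adjusted p = 0.972).

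Gm17586 starts 168 bases from Mafg, a small Maf transcription factor gene. It had 2.49, 3.31 and 4.23 CPM in cKO novelty libraries, against 4.5, 4.65 and 5.81 CPM in cKO naive libraries, with no overlap, as held for 1.98% of genes tested in cKO mice. It had 4.21, 4.17, 3.64, 4.14 and 4.43 CPM in control novelty libraries, against 4.21, 4.65 and 6.88 CPM in control naive libraries, with overlap. The averaged log2 fold change was -0.40 ± 0.09 (edgeR adjusted p = 0.00487), and Mafg was at 0.09 ± 0.03 (edgeR adjusted p = 0.0705).

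9330104G04Rik starts 431 bases from Dact3, a gene of a Wnt signalling modulator. It had 4.36, 5.31 and 5.81 CPM in cKO novelty libraries, against 5.5, 6.98 and 7.94 CPM in cKO naive libraries. It had 4.35, 5.05, 5.07, 5.81 and 5.08 CPM in control novelty libraries, against 4.91, 6.39 and 6.82 CPM in control naive libraries. All 12 novelty libraries were below the naive median of 6.69 CPM, and the groups overlapped. The averaged log2 fold change was -0.34 ± 0.07 (edgeR adjusted p = 0.00312), with Dact3 at -0.01 ± 0.04 (edgeR adjusted p = 0.933).

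These 3 lincRNAs have divergent starts. Of the 34 lincRNAs with a coding start within 1000 bases on the other strand, 6 were lower and 2 were higher after novelty, beside 2.13% lower and 4.43% higher among all genes. Their median log2 fold change was -0.12, against 0.04 for the 34 coding partners, of which 5 were higher and none lower. Negative values were found for 28 of the 34 lincRNAs and for 7 of the 34 partners. Beside these stand 70.9% of all 182 lincRNAs and 57.0% of all genes tested. The lincRNAs had a median level of 5.75 CPM and the partners of 71.4 CPM, so the lincRNA values rest on fewer reads. For genotype, 1 of the 34 lincRNAs was higher and none was lower, beside 5.72% higher and 6.32% lower among all genes. The median of these lincRNAs was 0.01, and 16 of the 34 were negative. Of the 34 partners, 1 was higher and 4 were lower, with a median of -0.03 and 23 negative.

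**Figure D5:**
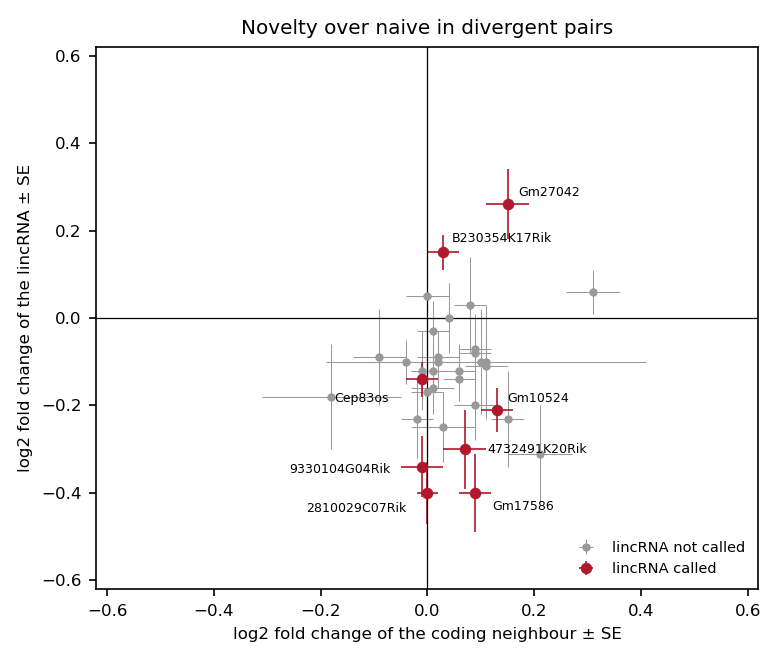
Log2 fold change after novelty with its SE of 34 lincRNAs (vertical axis) and of the coding gene that starts within 1000 bases on the other strand (horizontal axis), with called lincRNAs in red. Most points lie below the horizontal line and to the right of the vertical line, with 28 lincRNAs and 7 coding partners negative. Of all 182 lincRNAs 70.9% were negative, and of all genes 57.0%.

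Opposite calls were found at 1 of these pairs. Gm10524 was lower after novelty, at -0.21 ± 0.05 (edgeR adjusted p = 0.0103), while Zfp236, a zinc finger gene, was higher, at 0.13 ± 0.03 (edgeR adjusted p = 0.00984). Gm27042 and Aldh18a1, the gene of a proline synthesis enzyme, were both higher, at 0.26 ± 0.08 (edgeR adjusted p = 0.0474) and 0.15 ± 0.04 (edgeR adjusted p = 0.00867). The other divergent calls were 4732491K20Rik at -0.30 ± 0.09 (with Map3k4 at 0.07 ± 0.04), Cep83os at -0.14 ± 0.04 (with Cep83 at -0.01 ± 0.03) and B230354K17Rik at 0.15 ± 0.04 (with Cdc5l, a spliceosome gene, at 0.03 ± 0.03). AI480526 and A330009N23Rik were not called, but their partners were higher: Setd1b, a histone methyltransferase gene, at 0.21 ± 0.06 (edgeR adjusted p = 0.0221) and Grasp at 0.31 ± 0.05 (edgeR adjusted p = 0.000198).

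Away from divergent starts, Gm20515 was at -0.37 ± 0.11, given as a description since its base mean was 66.3 in the naive table and 49.0 in the novelty table, and its nearest coding gene Sox2, a transcription factor of glia and progenitors 214908 bases away, was at -0.29 ± 0.05 (edgeR adjusted p = 0.00108). C030014I23Rik was lower at -0.24 ± 0.05 (edgeR adjusted p = 0.00427). 2310015A10Rik was lower at -0.21 ± 0.06 (edgeR adjusted p = 0.0206), with Zfp36l1, an RNA-binding protein gene on the same strand, at -0.23 ± 0.08 (edgeR adjusted p = 0.0817). Gm17414 was higher at 0.25 ± 0.07 (edgeR adjusted p = 0.0263), above the naive median of 8.1 CPM in 12 of 12 novelty libraries. 1810058I24Rik was lower by a small amount, at -0.12 ± 0.04 (edgeR adjusted p = 0.0365). 9630001P10Rik, at -0.41 ± 0.10, reached the threshold only in the table of naive libraries, where it is high, and is given as a description.

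Of the 16 novelty calls, 9 passed in all 24 fits that leave out 1 library. These 9 include 9630001P10Rik, for which the choice itself favoured a difference, so its passing is no added support. Gm17414 passed in 20, failing without control naive library 6, control novelty libraries 1 and 4 or cKO naive library 2 (edgeR adjusted p up to 0.0515). Gm20515 passed in 18, failing without control naive library 1, control novelty library 5, cKO naive libraries 2 and 3 or cKO novelty libraries 4 and 6. 4732491K20Rik passed in 14, 1810058I24Rik and B230354K17Rik in 9 each, Cep83os in 7 and Gm27042 in 6. The 3 calls in the upward direction were thus all lost in some of these fits.

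Within each genotype fewer lincRNAs passed. In control mice 1 passed, 2810029C07Rik, at -0.48 ± 0.10 (edgeR adjusted p = 0.0201; background 1.22%), and it was lost without control naive library 1, 5 or 6 or control novelty library 2 or 5 (edgeR adjusted p up to 0.0842), while 2 passed without control novelty library 4. In cKO mice 4 passed, all lower (background 2.41%, with 0.484% lower and 1.92% higher): C030014I23Rik at -0.27 ± 0.06 (edgeR adjusted p = 0.0237), Gm17586 at -0.53 ± 0.12 (edgeR adjusted p = 0.0307), 9330104G04Rik at -0.38 ± 0.10 (edgeR adjusted p = 0.0448) and Mir9-3hg at -0.26 ± 0.07 (edgeR adjusted p = 0.0489). None passed in cKO mice without cKO naive library 2 or cKO novelty library 6, and 1 or 2 passed without cKO naive library 3, 4 or 6 or cKO novelty library 1, 2, 4 or 7. The median log2 fold change of the 182 was -0.036 in cKO mice (all genes -0.01) and -0.105 in control mice (all genes -0.014).

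Whether the novelty response depended on genotype was tested by the interaction. With edgeR, 0 of the 182 lincRNAs and 0.0% of all 16744 genes passed, with 5 lincRNAs (2.75%) and 688 of all genes (4.11%) at an unadjusted p under 0.05. With DESeq2, 0 lincRNAs passed and 6 were under that unadjusted p. The lincRNAs with the smallest p were Gm10561 at 0.49 ± 0.14, A230006K03Rik at 0.55 ± 0.20 and Gm14827 at 0.66 ± 0.27 on the log2 scale, each with an edgeR adjusted p of 1.0. These values do not show that the response was alike in both genotypes, since the median SE of a lincRNA in this fit was 0.17.

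Several well-known lincRNAs did not pass in either averaged comparison. Malat1 was at 0.12 ± 0.17 for genotype and -0.06 ± 0.17 for novelty, Neat1 at -0.02 ± 0.09 and -0.05 ± 0.09, and Miat at 0.00 ± 0.11 and -0.06 ± 0.11. Cyrano (1700020I14Rik) was measured more tightly, at -0.03 ± 0.05 and -0.04 ± 0.05. Mir124a-1hg, the host named for the neuronal microRNA miR-124, was at -0.11 ± 0.09 and 0.11 ± 0.09. Jpx and Ftx of the X inactivation centre were at 0.12 ± 0.09 and -0.03 ± 0.12 for genotype, and Pvt1 was at -0.01 ± 0.05.

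The libraries are numbered within each group, and numbers 1 to 3 and 4 and above were compared as separate parts, a split taken from earlier results on these data. The genotype values of the called lincRNAs were -0.54 to 0.81 in the first part and -0.46 to 0.69 in the second, and the novelty values -0.60 to 0.26 and -0.45 to 0.32. These values are the log2 ratio within a part, given without a test, and since the calls were made on the same libraries they are no separate evidence.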

How the data were processed

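RNA of dissected CA1 was sequenced as 24 polyadenylated libraries in 4 groups, which the labels name. The authors deposited raw read counts per Ensembl gene, 1 table per library, and 4 tables of pairwise DESeq2 comparisons. Per the file headers, the deposited tables hold a base mean (a signal, the mean normalised count), a log2 fold change and p-values. STAR 2.3.0, HTSeq, DESeq2 and GRCm38.p2 are named in the submitters' processing notes, while the sources used here give neither the annotation release nor the strand setting of counting. Reads without a gene made up 7.58 to 10.36% of a table and reads without a unique position 14.82 to 17.97%; such summary entries were left out. Multiply mapped reads are not counted, so genes with near-identical copies may be undercounted. The signal served only to choose the lincRNAs.

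Counts were tested with edgeR 4.0.16 in R 4.3.3 (TMM, filterByExpr at a minimum count of 10, robust glmQLFit, glmQLFTest) with Benjamini-Hochberg adjustment over all genes tested, and all 182 lincRNAs passed the filter in each of the 7 fits. Pairwise fits used only their own groups, and the averaged effects and the interaction came from a fit over all 24 libraries. The pairwise comparisons share groups, so their calls are not independent. In data simulated for averaged genotype and for novelty in control mice, the median estimate lay near the known change. The simulation drew on genes of all types and did not cover the interaction or the other fits. CPM are counts scaled after TMM, and RPKM divides them by exon length in GENCODE M21 (166 of 182 lincRNAs), which also gave symbols. Neighbours come from the deposited coordinates (GRCm38), sequences from RefSeq. SE is the standard error of a log2 fold change.

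The lincRNAs, the lists and the rules for named genes were chosen with earlier results of these data known. Named are all lincRNAs called in any fit with their nearest coding gene, the 10 with the highest level, those of the role lists, those next to the threshold and the 3 with the smallest interaction p. DESeq2 1.42.0, upper-quartile scaling, no filter, a replicate block, a covariate for library numbers, other thresholds and leaving out each library were the alternatives. Restricting the lincRNAs to those that overlap no coding gene, are not coding in M21 or reached the threshold in all 4 tables was added after seeing the data. The grouping by divergent starts was not among the planned comparisons.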

Additional observations from a re-analysis of the deposited data

Results flagged for a closer look

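Per-library levels of 54 named lincRNAs were searched in 216 groups of libraries for a highest or lowest value far from the others (Dixon's test, which flags about 1 group in 20 by chance), and 14 were found. Gm42418 was high in cKO novelty library 7 (5330 CPM, next 2550 CPM) and in control naive library 3 (5440 CPM, next 1830 CPM). Meg3 was high in control novelty library 4, at 2700 CPM beside 1790 CPM for the next. Among lincRNAs called between genotypes, the high values were Gm2115 in control novelty library 1 at 118 CPM, A830039N20Rik and 2310002F09Rik in control naive library 2 at 90.8 and 7.36 CPM, and 9530026P05Rik in control novelty library 2 at 2.25 CPM. The low values were Snhg12 in control novelty library 1 at 15.3 CPM and Gm26631 in control novelty library 5 at 8.99 CPM. Among those called for novelty, Cep83os was high in control naive library 2 at 51.7 CPM and Gm17586 in control naive library 6 at 6.88 CPM, while Mir9-3hg was low in control naive library 1 at 25.4 CPM and Gm20515 in control novelty library 5 at 2.07 CPM. Mirg was high in control naive library 1 at 19.5 CPM. Control naive library 2 held 3 of the 14 values, and only 1 of the 14, of Gm42418, was in a cKO library.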

How the results depend on the processing

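Counts of called lincRNAs stayed within 1.5 times the reported count under the alternatives not named here, and no called value changed sign. The median log2 fold change for genotype, -0.001, lay between -0.003 and 0.011 in the other fits and between -0.014 and 0.021 without 1 library, so its sign was not fixed. For novelty in control mice (1 called), 0 were called with the replicate block, 2 with the covariate for library numbers, 2 in the fit over all 24 libraries and 3 with DESeq2. Over all genes, 196 were called in the reported fit, and 97, 233, 305 and 373 under these alternatives. For novelty in cKO mice (4), 0 were called with the replicate block and 8 with DESeq2. Over all genes, 393 were called in the reported fit, 207 with the replicate block and 639 with DESeq2. For genotype in naive mice (1), 3 were called in the fit over all 24 libraries, 6 with DESeq2, 3 over all lincRNAs in the tables and 0 without genes coding or pseudogenes in M21. Over all genes, 131 were called in the reported fit, 322 in the fit over all 24 libraries and 462 with DESeq2. For genotype in novelty-exposed mice (6), 10 were called over all lincRNAs. For genotype averaged over exposures (15), 29 were called over all lincRNAs and 7 over those that overlap no coding gene. Leaving out 1 library gave 0 to 2 calls for novelty in control mice, 0 to 5 for novelty in cKO mice, 1 to 4 for genotype in naive mice, 4 to 10 for genotype in novelty-exposed mice, 10 to 16 for averaged novelty, 11 to 16 for averaged genotype and 0 to 0 for the interaction. With upper-quartile scaling the averaged novelty calls were 1 higher and 14 lower, against 3 and 13 with TMM, and the median of the lincRNAs was -0.084 against -0.03 for all genes. The cause of these differences was not tested. Most same-numbered libraries did not deviate together (median correlations of -0.065 to 0.031 over the 4 comparisons, at most 1 pair over 0.1 in each). The highest single pair reached 0.279. With so few pairs, these correlations cannot show whether the numbers mark libraries that belong together. The replicate block gave 14 calls for averaged genotype and 14 for averaged novelty. Over all genes it gave 1974 and 1070 calls, against 2017 and 1097 without it. Of 43 single calls, 1 was lost with DESeq2, 3 with upper-quartile scaling, 8 without a filter, 3 with the covariate and 11 with the block. The fit over all 24 libraries bears only on the pairwise calls, of which 1 was lost and 11 stayed. Depth limits the low lincRNAs, 123 of which were under 10 CPM.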

Other observations

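A330023F24Rik, the host of miR-29b and miR-29c, was called in 2 of the authors' deposited tables and not by edgeR in any of the 7 comparisons. It had 46.6, 58.3 and 71.2 CPM (lowest, median and highest) in cKO novelty libraries, against 31.4, 40.2 and 57.3 CPM in cKO naive libraries. It had 41.6, 45.7, 43.4, 59.4 and 38.8 CPM in control novelty libraries, against 30.5, 44.9 and 56.5 CPM in control naive libraries. The groups overlapped in both genotypes. The log2 fold change after novelty was 0.43 ± 0.13 in cKO mice (edgeR adjusted p = 0.115) and 0.03 ± 0.14 in control mice (edgeR adjusted p = 0.98), and the difference between genotypes was 0.39 ± 0.20 (edgeR adjusted p = 1.0). The authors' deposited table gives 0.40 with an adjusted p of 0.0253 for novelty in cKO mice. For cKO over control after novelty, the authors' deposited table gives 0.34 with an adjusted p of 0.0229. The mature 3p forms share a seed, in capitals below from RefSeq (GRCm38.p6).
miR-29b-3p: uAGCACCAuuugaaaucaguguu
miR-29c-3p: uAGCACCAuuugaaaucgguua

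The authors' deposited tables call 9 lincRNAs of the 182 for novelty in cKO mice (4.41% of all genes), 3 for novelty in control mice (2.79% of all genes), 7 between genotypes without exposure (3.18% of all genes) and 9 between genotypes after exposure (8.17% of all genes). Both counts between genotypes include 6530403H02Rik, for which the choice itself favoured a difference. B230217O12Rik is called in the authors' deposited table for genotype in naive mice at 0.28 (adjusted p = 0.00889) and for novelty in cKO mice at -0.23 (adjusted p = 0.042).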
